A study of Mus musculus with 30 samples.

Results

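Cohesin is the ring-shaped complex that holds sister chromatids together, and its 9 subunit genes considered here were chosen by name from the 65534 genes and loci of the expression table. They are the 4 meiotic subunits Rec8, Rad21l, Smc1b and Stag3, and the 5 subunits found in mitotic cells, Rad21, Smc1a, Smc3, Stag1 and Stag2. The values are from polyadenylated RNA of germ cells enriched from testes of male mice, C57BL/6J with less than 10% 129S1/SvImJ. Mice lacking Prdm9 (-/-) were set against mice with a working Prdm9 allele, heterozygous (+/-) or wild type (+/+). Prdm9 encodes the meiotic histone methyltransferase that marks sites of recombination. There were 5 -/-, 2 +/- and 3 +/+ libraries at 8 days post partum (dpp), 5 -/-, 4 +/- and 1 +/+ at 12 dpp, and 5 -/-, 3 +/- and 2 +/+ at 16 dpp. Each of the 30 libraries came from 1 animal of 14 litters. Below, mutant stands for -/-, and non-mutant for +/- and +/+ combined.

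A cohesin ring is built from an SMC1 protein, SMC3, a kleisin that closes the ring and a STAG protein that binds the kleisin. In mitotic cells these are SMC1A, SMC3, RAD21 and either STAG1 or STAG2. In meiosis, SMC1B, the kleisins REC8 and RAD21L, and STAG3 take the corresponding places, while SMC3 is shared by both kinds of ring. Meiotic cohesin forms the axes along which homologous chromosomes pair in meiotic prophase, and REC8 cohesin is later cleaved as chromosomes separate. The ages sampled cover the first wave of spermatogenesis, from spermatogonia through the early stages of prophase.

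The 4 meiotic genes rose together with age, and Smc1a is the member that differed between genotypes at 16 dpp, so the promoters of these 5 are shown here. Each is the stretch from 250 bases before to 50 bases after the annotated start, from RefSeq (GRCm38.p6), 5′ to 3′ on the gene's strand. Capitals mark TTCCCGC, letters of the kind bound by E2F factors, and CACGTG, the E-box letters bound by MYC-family and other basic helix-loop-helix factors. The regions are chr14:55617916-55618215 on the + strand for Rec8, chr2:151668484-151668783 on the - strand for Rad21l, chr15:85131908-85132207 on the - strand for Smc1b, chr5:138280259-138280558 on the + strand for Stag3 and chrX:152016178-152016477 on the + strand for Smc1a.
Rec8: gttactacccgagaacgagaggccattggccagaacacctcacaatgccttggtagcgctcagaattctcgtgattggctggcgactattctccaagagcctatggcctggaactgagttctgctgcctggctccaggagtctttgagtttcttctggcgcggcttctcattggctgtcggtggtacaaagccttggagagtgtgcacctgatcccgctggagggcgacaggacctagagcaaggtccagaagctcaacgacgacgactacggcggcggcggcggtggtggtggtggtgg
Rad21l: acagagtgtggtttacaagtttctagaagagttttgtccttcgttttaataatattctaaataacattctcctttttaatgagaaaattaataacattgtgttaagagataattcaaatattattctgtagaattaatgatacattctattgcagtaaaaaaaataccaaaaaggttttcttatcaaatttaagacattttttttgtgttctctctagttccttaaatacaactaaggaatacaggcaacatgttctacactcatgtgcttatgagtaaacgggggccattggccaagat
Smc1b: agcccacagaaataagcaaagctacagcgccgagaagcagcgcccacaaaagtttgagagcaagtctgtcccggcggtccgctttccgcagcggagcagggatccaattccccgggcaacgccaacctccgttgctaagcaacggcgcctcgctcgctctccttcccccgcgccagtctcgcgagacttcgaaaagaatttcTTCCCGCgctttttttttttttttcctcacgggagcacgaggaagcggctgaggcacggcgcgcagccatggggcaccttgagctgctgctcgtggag
Stag3: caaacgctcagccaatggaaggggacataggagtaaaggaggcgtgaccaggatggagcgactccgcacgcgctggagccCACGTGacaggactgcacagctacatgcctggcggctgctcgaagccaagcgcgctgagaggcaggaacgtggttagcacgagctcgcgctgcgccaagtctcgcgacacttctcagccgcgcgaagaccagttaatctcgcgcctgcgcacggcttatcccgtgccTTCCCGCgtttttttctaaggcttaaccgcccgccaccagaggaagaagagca
Smc1a: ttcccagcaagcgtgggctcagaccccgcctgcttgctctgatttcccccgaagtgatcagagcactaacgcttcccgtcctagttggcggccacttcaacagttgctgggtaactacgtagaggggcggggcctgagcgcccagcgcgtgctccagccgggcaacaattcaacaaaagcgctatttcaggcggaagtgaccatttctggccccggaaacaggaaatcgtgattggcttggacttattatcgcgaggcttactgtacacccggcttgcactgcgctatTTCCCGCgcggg

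On either strand (TTCCCGC or its reverse GCGGGAA), the first motif was found in 4.6% of all 32851 promoters of this length. It began 48 bases before the start of Smc1b, 3 before that of Stag3, 16 before that of Stag1 and at base 38 after that of Smc1a. CACGTG, found in 7.15% of all promoters, was present in Stag3 alone among the 7 members with a promoter in the table, beginning 170 bases before the start. The CCAAT letters (or ATTGG), found in 37.41% of promoters, occurred 3 times in Rec8, once each in Rad21l, Smc1b, Stag3, Smc1a and Stag1, and not in Smc3. The Rad21l stretch held 29% G and C, against 58.33% for Rec8, 60.0% for Smc1b, 61.33% for Stag3, 58.33% for Smc1a and a median of 52.67% over all promoters. The meiotic genes thus shared none of the letters TTCCCGC or CACGTG across all 4 promoters. These matches describe the letters in the window and were not tested as binding sites.

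The genes lie on 7 chromosomes (mm10, GENCODE M21). Rec8 (ENSMUSG00000002324) is at chr14:55618037-55625395 (+), Rad21l (ENSMUSG00000074704) at chr2:151645404-151668533 (-), Smc1b (ENSMUSG00000022432) at chr15:85064689-85131964 (-) and Stag3 (ENSMUSG00000036928) at chr5:138280240-138312393 (+). Rad21 (ENSMUSG00000022314) is at chr15:51962240-51991747 (-), Smc3 (ENSMUSG00000024974) at chr19:53600398-53645833 (+) and Stag1 (ENSMUSG00000037286) at chr9:100597798-100959375 (+). Smc1a (ENSMUSG00000041133, chrX:152016428-152062694, +) and Stag2 (ENSMUSG00000025862, chrX:42149317-42277185, +) are the X-linked members. Levels are in TPM, a measure scaled by transcript length, so genes can be set side by side. Small genes overlap Smc1b, Smc1a, Stag1 and Stag2, and use of read strand is not stated, so reads of such neighbours cannot be told apart from theirs.

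Several features of the libraries bear on all the values. Prdm9 itself did not mark the genotypes at 8 dpp, where it was at 7.38, 6.97, 8.98, 4.77 and 8.03 TPM in mutants and 5.4, 6.1, 1.82, 5.51 and 5.18 TPM in non-mutants, 0.55 higher in mutants on the log2 scale (limma adjusted p = 1, unadjusted p = 0.0464). At 16 dpp it was at 6.89 to 12.77 TPM in mutants, against 19.71 to 34.41 TPM in non-mutants. At 12 dpp 1 pair of litter mates went against its labels, with 19.23 TPM in -/- replicate 5, as labelled, against 9.16 TPM in +/- replicate 4, so the counts of members called are also given without this litter. Markers of germ cells were present in all libraries, with Ddx4 and Dazl at 67.09 TPM or more, but so were those of Sertoli cells, the somatic cells of the tubule. The summed level of 10 Sertoli markers was 4222 to 7634 TPM in mutants and 5157 to 7739 TPM in non-mutants, over all ages. In such mixed samples, fewer cells of a type and less RNA per cell cannot be told apart.

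The meiotic kleisins Rec8 and Rad21l increased steeply between 8 and 12 dpp in both genotype classes. At 8 dpp Rec8, whose protein holds sister chromatids together until the meiotic divisions, was at 19.79, 10.94, 8.51, 6.42 and 17.21 TPM in mutants and 9.75, 15.92, 8.65, 14.69 and 13.84 TPM in non-mutants. At 12 dpp it was at 40.94, 26.06, 32.01, 40.01 and 30.98 TPM in mutants and 37.68, 38.83, 39.53, 29.06 and 30.71 TPM in non-mutants. At 16 dpp the values were 57.96, 35.14, 56.53, 58.07 and 43.64 TPM in mutants and 41.89, 47.17, 26.47, 38.46 and 43.36 TPM in non-mutants. Every 12 dpp library thus lay above every 8 dpp library, whereas the 12 and 16 dpp values overlapped in both classes, and mutants and non-mutants overlapped at each age. The mean level was 2.71-fold higher at 12 than at 8 dpp in mutants and 2.80-fold higher in non-mutants.

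Rad21l, the kleisin specific to meiotic prophase, was the least abundant subunit. Its level at 8 dpp was 8.58, 3.58, 2.33, 2.54 and 3.56 TPM in mutants and 1.72, 7.34, 2.16, 4.4 and 2.99 TPM in non-mutants. By 12 dpp these were 16.04, 8.97, 18.33, 17.69 and 20.93 TPM in mutants and 14.65, 17.26, 17.67, 20.45 and 11.67 TPM in non-mutants, and at 16 dpp 24.76, 31.9, 27.43, 24.18 and 27.78 TPM in mutants and 18.37, 25.49, 21.31, 24.65 and 22.46 TPM in non-mutants. All 12 dpp values were above all 8 dpp values of their class. In mutants all 16 dpp values were also above those of 12 dpp, whereas in non-mutants these ages overlapped. The mean was 3.98-fold higher at 12 than at 8 dpp in mutants and 4.39-fold higher in non-mutants. Mutant replicate 1 of 8 dpp, at 8.58 TPM, stood apart from its group; its summed level of 6 leptotene and zygotene markers, 193.7 TPM, was the highest of the 8 dpp libraries (71.31 to 193.7 TPM in mutants, 68.97 to 157.5 TPM in non-mutants).

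Smc1b and Stag3, which complete the meiotic ring, followed the kleisins at higher levels. Smc1b was at 26.93, 18.28, 20.8, 13.52 and 23.43 TPM in mutants and 16.88, 35.06, 7.99, 25.03 and 20.89 TPM in non-mutants at 8 dpp. At 12 dpp it had 83.03, 64.4, 73.62, 73.13 and 72.52 TPM in mutants, against 85.19, 81.33, 98.85, 104.24 and 39.25 TPM in non-mutants. At 16 dpp it had 124.05, 153.56, 106.27, 95.92 and 129.27 TPM in mutants, against 119.12, 109.16, 114.28, 130.74 and 106.78 TPM in non-mutants. Successive ages did not overlap within either class. The lowest non-mutant value of 12 dpp, 39.25 TPM, was the only +/+ library of that age.

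Stag3, the meiotic partner of the kleisins, was the most abundant of the 4 at every age. Its 8 dpp values were 118.55, 53.77, 53.3, 40.25 and 61.11 TPM in mutants and 47.81, 76.43, 39.15, 57.6 and 63.26 TPM in non-mutants. The 12 dpp values were 123, 95.16, 130.81, 130.97 and 152.62 TPM in mutants and 124.8, 115.96, 148.79, 152.52 and 106.35 TPM in non-mutants. At 16 dpp there were 188.77, 156.62, 150.69, 162.62 and 168.23 TPM in mutants and 178.99, 190, 193.77, 158.5 and 141.88 TPM in non-mutants. In non-mutants the 8 and 12 dpp values did not overlap, whereas in mutants 1 library of 8 dpp, replicate 1 at 118.55 TPM, lay within the 12 dpp range. The mean was 1.93-fold higher at 12 than at 8 dpp in mutants and 2.28-fold higher in non-mutants.

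**Figure D1:**
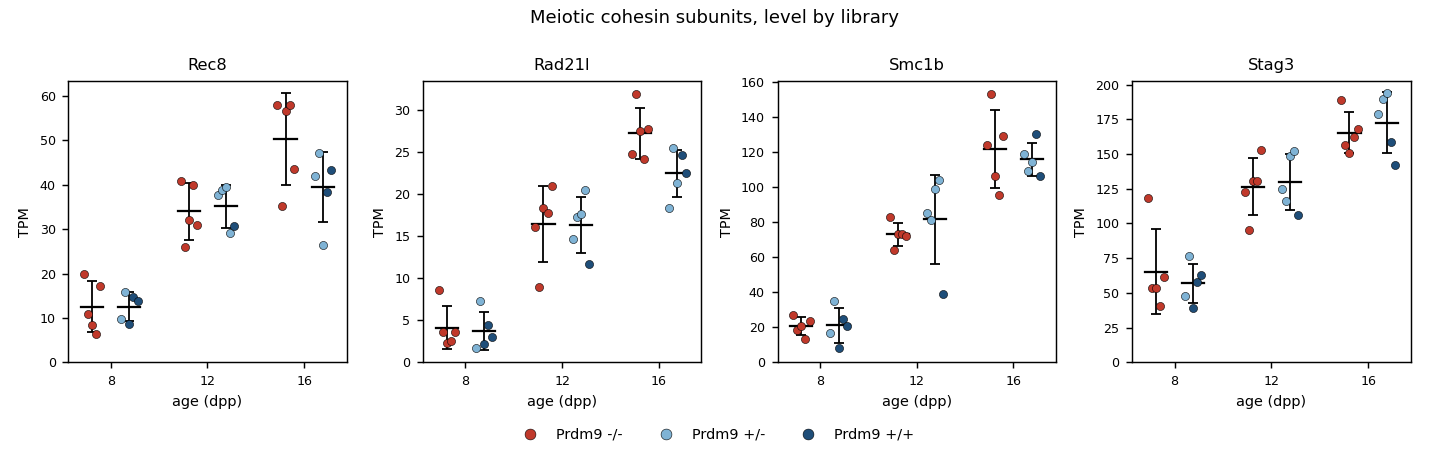
Level of Rec8, Rad21l, Smc1b and Stag3 (TPM, y axis) by age in dpp (x axis), 1 point per library, with -/- libraries left of the +/- and +/+ libraries of the same age; horizontal and vertical lines are the mean and SD of the 5 mutant or 5 non-mutant libraries. All 4 genes are higher at 12 than at 8 dpp, and the genotype classes overlap at every age.

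Differences were fitted on log2(TPM + 1) with limma over all 20021 rows above 1 TPM in at least 5 libraries, a filter that all 9 members passed, and called at an adjusted p under 0.05. The scale understates the change of low genes. From 8 to 12 dpp, 7 of 9 members were called in mutants, 5 higher and 2 lower, where 29.7% of all rows were called, 17.5% higher and 12.2% lower. In non-mutants 6 of 9 were called, 5 higher and 1 lower, where 32.5% of all rows were called, 20.3% higher and 12.1% lower. Libraries of 12 and 8 dpp did not overlap for 3 members in mutants (16.5% of all rows) and 5 in non-mutants (21.2%), all higher at 12 dpp. Without the litter that went against its labels, 6 members were called in mutants and 5 in non-mutants.

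All 4 meiotic genes rose from 8 to 12 dpp in both classes. By limma, Smc1b rose by 1.81 ± 0.251 on the log2 scale in mutants (SE, adjusted p = 2.73e-06) and by 1.97 ± 0.251 in non-mutants (adjusted p = 9.44e-07). Rad21l rose by 1.83 ± 0.256 in mutants (limma adjusted p = 3.32e-06) and 1.97 ± 0.256 in non-mutants (adjusted p = 1.2e-06). Stag3 had the smallest of the 4 rises, 1.03 ± 0.190 in mutants and 1.198 ± 0.190 in non-mutants (limma adjusted p = 0.000136 and 1.91e-05). Rec8 rose by 1.45 in mutants and 1.44 in non-mutants. The difference of this step between the classes, tested for all rows, was called for none of them by limma (367 rows at an unadjusted p under 0.05), and for the 4 genes it ran from -0.17 for Stag3 to 0.02 for Rec8. Leptotene and zygotene markers moved with these genes: their summed level was 279.1 to 516.3 TPM in mutants and 338.8 to 548.2 TPM in non-mutants at 12 dpp. Their part in the rises was not tested.

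From 12 to 16 dpp the meiotic genes had higher means again, but none was called within a class. The log2 differences were 0.74 for Rad21l, 0.71 for Smc1b, 0.54 for Rec8 and 0.40 for Stag3 in mutants (limma adjusted p = 0.0572, 0.0624, 0.108 and 0.183). In non-mutants the differences were 0.57 for Smc1b, 0.45 for Rad21l, 0.41 for Stag3 and 0.15 for Rec8 (limma adjusted p = 0.103, 0.216, 0.119 and 0.67). These calls were near the threshold: with only the 12 and 16 dpp libraries in the fit, all 4 passed it in mutants, and Smc1b and Stag3 passed it in non-mutants. In mutants Rad21l also passed without +/- replicate 1, +/- replicate 2 or -/- replicate 1 of 8 dpp or -/- replicate 5 of 12 dpp (limma adjusted p = 0.0251 to 0.0486). Smc1b passed in mutants without +/+ replicate 1 or +/- replicate 2 of 8 dpp or +/+ replicate 1 of 12 dpp (0.019 to 0.0409). With both classes averaged, a comparison added after the values were seen, 5 of 9 members were called, where 32.3% of rows were. Smc1b rose by 0.64, Rad21l by 0.59 and Stag3 by 0.41 in it (limma adjusted p = 0.00619, 0.0123 and 0.0208), and Rec8 was 0.35 higher and not called (adjusted p = 0.0887). With litter as a random block the count was 3, Stag3 and Stag2 losing their calls (limma adjusted p = 0.068 and 0.0946). In the same average all 9 members were called from 8 to 12 dpp, where 46.8% of rows were. The weakest of these was Rad21, 0.11 lower (limma adjusted p = 0.0474), a call lost on leaving out any of 18 libraries (adjusted p up to 0.0835). Stag2 lost its call in both averages, on leaving out any of 9 libraries at the first step (up to 0.095) and any of 11 at the second (up to 0.101). With litter as a random block Rad21 and Stag2 were also not called at the first step (limma adjusted p = 0.102 and 0.0781). Under median-ratio scaling Stag1 was not called there (limma adjusted p = 0.118).

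**Figure D2:**
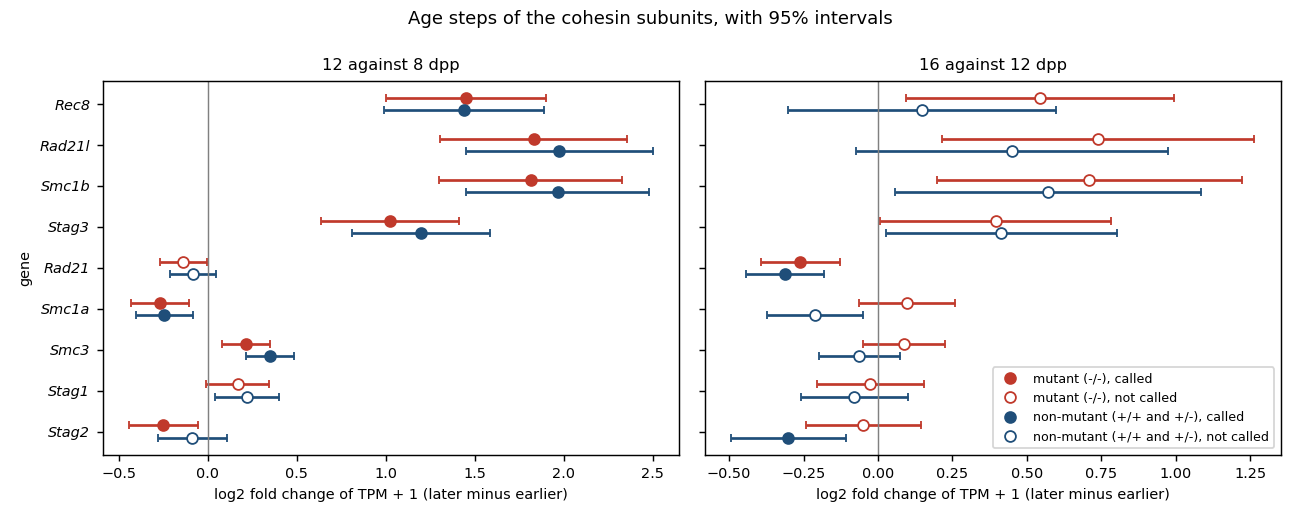
Log2 fold change of TPM + 1 (x axis) between successive ages for each member (y axis), in mutants (upper, red) and non-mutants (lower, blue), with 95% intervals; filled points were called by limma. The 4 meiotic genes are the largest rises at the first step, 1.03 to 1.97, and Rad21 falls at the second step in both classes.

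Among the subunits of mitotic cells, Smc1a and Stag2 had lower means at 16 than at 8 dpp in both classes, and so did Rad21. This kleisin of mitotic and most somatic cohesin was the most abundant member in every library but 3 of 16 dpp, in which Stag3 was higher. It had 241.26, 233.02, 248.51, 242.98 and 245.63 TPM in mutants and 219.71, 245.86, 227.33, 247.7 and 244.47 TPM in non-mutants at 8 dpp. At 12 dpp its range was 208.5 to 241.5 TPM in mutants and 213.9 to 236.8 TPM in non-mutants. At 16 dpp it had 180.23, 207.84, 158.09, 193.85 and 181.37 TPM in mutants, against 190, 176.1, 175.31, 199.69 and 161 TPM in non-mutants. All 16 dpp values lay below all 12 dpp values of their class.

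From 12 to 16 dpp Rad21 fell by 0.26 ± 0.0643 on the log2 scale in mutants (SE, limma adjusted p = 0.00685) and by 0.31 ± 0.0643 in non-mutants (adjusted p = 0.000741). It was the only member called in mutants, where 12.1% of rows were called and 5.89% were lower. In non-mutants, where 21.8% of rows were called, the calls were Rad21 and Stag2. Libraries of 16 and 12 dpp did not overlap for 3 members in mutants (12.5% of all rows), Rad21l, Smc1b and Rad21, and 3 in non-mutants (12.7%), Smc1b, Rad21 and Stag2. Without the litter that went against its labels, 1 member was called in mutants and 3 in non-mutants, Smc1a being added. Stag2, a STAG protein of mitotic cohesin, fell by 0.30 ± 0.0941 in non-mutants (limma adjusted p = 0.0213), with 36.93 to 46.98 TPM at 16 dpp and 48.17 to 54.32 TPM at 12 dpp. In mutants it was at 39.47 to 55.37 TPM at 16 dpp and 44.91 to 57.64 TPM at 12 dpp, a difference of -0.05. The Stag2 call was lost without +/+ replicate 2 of 16 dpp (-0.27, limma adjusted p = 0.0553), without +/- replicate 3 of 16 dpp (-0.25, 0.0808), and under median-ratio scaling (-0.20, 0.12).

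Between 8 and 16 dpp the remaining subunits of mitotic cells changed less than the meiotic genes did. The 16 to 8 dpp ratio of mean TPM for Smc1a was 0.886 in mutants and 0.727 in non-mutants. For Stag2 it was 0.806 in mutants and 0.762 in non-mutants, and for Rad21 0.761 in both. Smc3, the subunit common to all rings, rose from 8 to 12 dpp by 0.21 in mutants and 0.35 in non-mutants (limma adjusted p = 0.0149 and 0.000193). It was at 76.45 to 91.97 TPM in mutants and 73.87 to 82.27 TPM in non-mutants at 8 dpp, and at 90.63 to 104.3 TPM in mutants and 94.97 to 108.2 TPM in non-mutants at 12 dpp. Smc1a, the mitotic counterpart of Smc1b, fell by 0.27 in mutants and 0.24 in non-mutants over the same step (limma adjusted p = 0.0103 and 0.0182). Stag2 fell by 0.25 in mutants (limma adjusted p = 0.0452), a step that includes the outlying 79.19 TPM of mutant replicate 4 of 8 dpp. Without that library the Stag2 difference was -0.15 (limma adjusted p = 0.201).

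Other libraries also decided calls at this step. The Smc1a call in non-mutants was lost without +/- replicate 4 of 12 dpp (-0.21, limma adjusted p = 0.0598), and the Smc3 call in mutants without -/- replicate 3 of 8 dpp (0.18, 0.0526) or under median-ratio scaling (0.15, 0.077). The Stag2 call in mutants was lost on leaving out any of 9 libraries, with adjusted p of 0.05 to 0.201. Stag1, the other mitotic STAG gene, was at 61.9 to 102.4 TPM throughout. Its difference from 8 to 12 dpp was 0.17 in mutants and 0.22 in non-mutants (limma adjusted p = 0.156 and 0.0549), and it passed the threshold in non-mutants on leaving out any of 6 libraries.

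**Figure D3:**
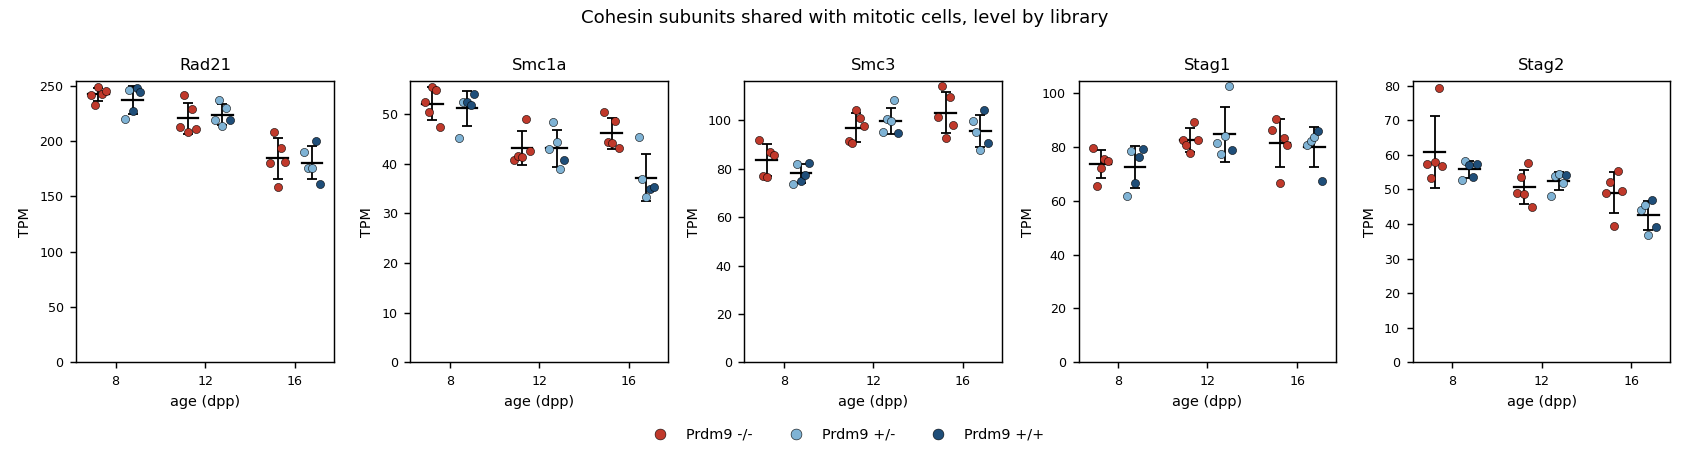
Level of Rad21, Smc1a, Smc3, Stag1 and Stag2 (TPM, y axis) by age in dpp (x axis), drawn as for the meiotic genes: 1 point per library, -/- left, lines for the mean and SD of 5 libraries. Rad21 is lower at 16 dpp in both classes, and Smc1a at 16 dpp has a mean of 46.2 TPM in mutants and 37.2 TPM in non-mutants.

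Set against their mitotic counterparts in the same library, the meiotic genes took a growing share of the transcripts for each position in the ring. Shares were computed on TPM and carry no test. They are of RNA in libraries that also held Sertoli cell markers, and do not tell which protein fills a ring. The part of cell makeup in the shares was not tested. Smc1b made up 28.1 ± 5.72% of Smc1a plus Smc1b transcripts in mutants and 28.2 ± 9.82% in non-mutants at 8 dpp (SD, n = 5 each). At 12 dpp it made up 62.9 ± 2.85% in mutants and 64.0 ± 9.18% in non-mutants, and at 16 dpp 72.1 ± 4.33% in mutants and 75.7 ± 2.52% in non-mutants. By group means the order of the SMC1 genes thus turned between 8 and 12 dpp. The mean ratio of Smc1b to Smc1a was 0.399 in mutants and 0.413 in non-mutants at 8 dpp. At 12 dpp it was 1.71 in mutants and 1.91 in non-mutants. In the only +/+ library of 12 dpp the ratio was 0.96, and the mean of the +/- libraries was 2.14.

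Stag3 made up 31.8 ± 9.30% of the 3 Stag transcripts in mutants and 30.3 ± 4.26% in non-mutants at 8 dpp (SD, n = 5 each). The share was 48.5 ± 4.80% in mutants and 48.4 ± 2.82% in non-mutants at 12 dpp, and 56.0 ± 2.72% in mutants and 58.4 ± 2.77% in non-mutants at 16 dpp. Among kleisin transcripts the mitotic gene stayed ahead. Rec8 and Rad21l together made up 6.38 ± 2.84% of kleisin transcripts in mutants and 6.35 ± 1.67% in non-mutants at 8 dpp. They made up 18.6 ± 3.40% in mutants and 18.7 ± 1.83% in non-mutants at 12 dpp, and 29.7 ± 3.82% in mutants and 25.6 ± 3.43% in non-mutants at 16 dpp. Within the meiotic kleisins, the mean ratio of Rec8 to Rad21l was 3.28 in mutants and 3.96 in non-mutants at 8 dpp, and 1.90 in mutants and 1.77 in non-mutants at 16 dpp.

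**Figure D4:**
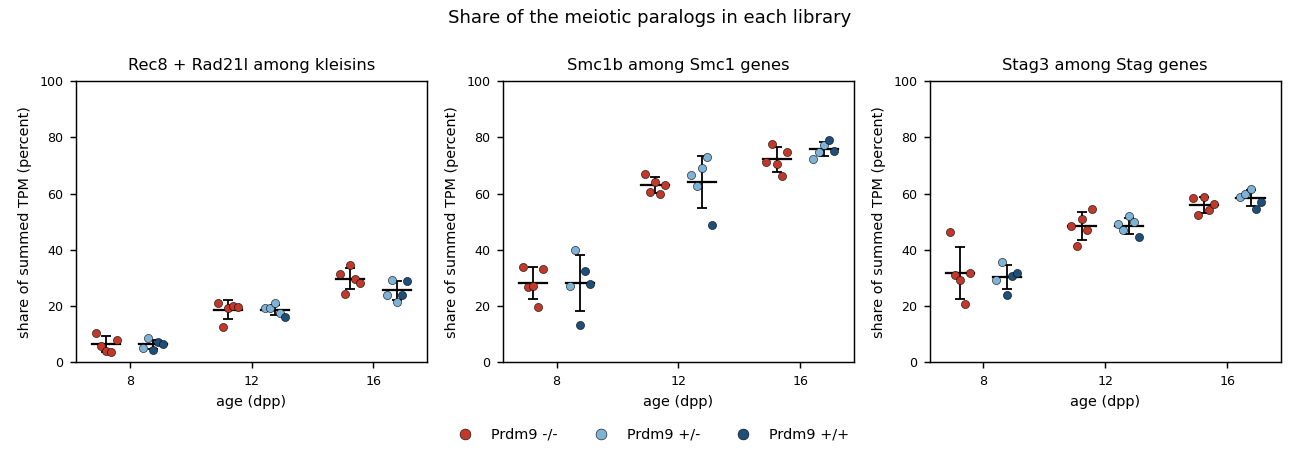
Share of the meiotic gene or genes in the summed TPM of each position in the ring (percent, y axis) by age in dpp (x axis): Rec8 plus Rad21l among kleisins, Smc1b among SMC1 genes and Stag3 among STAG genes; 1 point per library, -/- left, lines for mean and SD of 5 libraries. Smc1b passes 50% in 9 of 10 libraries by 12 dpp, whereas the kleisin share reaches 29.7% in mutants and 25.6% in non-mutants at 16 dpp.

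The genotype comparison asks whether loss of Prdm9 changes these subunits. At 8 dpp no row was called by limma (0% of 20021; 417 at an unadjusted p under 0.05), and member differences, mutant minus non-mutant, ran from -0.07 for Rec8 to 0.13 for Stag3 on the log2 scale. At 12 dpp no row was called either (0%, with 225 at an unadjusted p under 0.05). Members ran from -0.09 for Smc1b to 0.00 for Smc1a. Without the litter that went against its labels 0 members were called, and the differences of Smc1b, Rad21, Smc1a and Stag1 changed sign. The intervals set what these comparisons could show: at 12 dpp the 95% interval was -0.60 to 0.43 for Smc1b and -0.16 to 0.11 for Rad21. All 9 members overlapped between the classes at both ages, as did all but 0.180% of rows at 8 dpp and 0.200% at 12 dpp.

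At 16 dpp Smc1a was the only member called, higher in mutants, where 3.26% of all rows were called and 0.509% were called higher. It was at 50.35, 44.33, 44.29, 48.71 and 43.24 TPM in mutants and 45.35, 36.99, 33.32, 34.91 and 35.33 TPM in non-mutants. Every mutant thus lay above 4 of 5 non-mutants, and +/- replicate 1, at 45.35 TPM, lay within the mutant range. The difference was 0.31 ± 0.0786 on the log2 scale (SE, limma adjusted p = 0.0178). Within litters, the mutant was higher than its mate in 5 of 5 pairs, by 0.15 to 0.39 with a median of 0.34 on the log2 scale.

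The Smc1a call depended on several choices. It was lost under median-ratio scaling (0.23, limma adjusted p = 0.0667), against +/- libraries alone (0.26, 0.201), against +/+ libraries alone (0.38, 0.0513) and in a fit of the 16 dpp libraries alone (0.31, 0.104). It was also lost on leaving out 1 of 5 libraries of 16 dpp: +/+ replicate 1 (0.29, 0.0577), +/- replicate 2 (0.31, 0.0533), +/- replicate 3 (0.27, 0.101), -/- replicate 1 (0.28, 0.0701) or -/- replicate 4 (0.29, 0.0604). It was kept with the litter as a block (adjusted p = 0.0286) and without +/- replicate 1 (0.38, 0.00105). Smc1a is X-linked, and of 711 X-linked rows tested 42 were called higher and 0 lower in mutants at 16 dpp. Their median difference was 0.20, beside 0.07 over all rows. Whether the Smc1a difference goes beyond that of other X-linked rows was not tested.

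Stag2, also X-linked, was at 39.47 to 55.37 TPM in mutants and 36.93 to 46.98 TPM in non-mutants at 16 dpp. Its difference of 0.20 ± 0.0941 was not called (limma adjusted p = 0.376). The mutant was higher than its litter mate in 5 of 5 pairs, by 0.01 to 0.41. Smc3 was likewise higher in 5 of 5 pairs, by 0.03 to 0.20, with a difference of 0.11 (limma adjusted p = 0.539). The median difference over all rows was 0.07 at this age, and how many of all rows were higher in 5 of 5 pairs was not counted. For Rec8, higher in 4 of 5 mutants than in their mates, the difference was 0.34 with a 95% interval of -0.11 to 0.79 (limma adjusted p = 0.571). Rad21l differed by 0.27 (-0.26 to 0.79), Smc1b by 0.05 (-0.46 to 0.57) and Stag3 by -0.06 (-0.44 to 0.33). Rad21 and Stag1 differed by 0.03 (-0.10 to 0.16) and 0.02 (-0.16 to 0.20). None of the 9 members separated the classes completely, beside 4.35% of all rows.

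Pachytene markers, by contrast, differed widely at this age. Of 8 listed 7 were tested and 7 fell in mutants, with a median difference of -3.15 on the log2 scale. The summed level of the 8 was 110.5 to 148.8 TPM in mutants and 257.2 to 1377 TPM in non-mutants, with Pgk2 at 0.0 to 0.43 TPM in mutants and 0.1 to 10.0 TPM in non-mutants. The summed leptotene and zygotene markers were at 697.3 to 1158 TPM in mutants and 800.7 to 1207 TPM in non-mutants, and the 10 Sertoli markers at 6086 to 7244 TPM in mutants and 5994 to 6596 TPM in non-mutants. The 4 markers of all germ cells summed to 1300 to 1545 TPM in mutants and 1457 to 1966 TPM in non-mutants, with 1 of 4 called lower in mutants. Markers of macrophages, Leydig cells and red blood cells had higher means in mutants with overlapping ranges: 65.75 to 127 against 41.79 to 92.27 TPM for 4 macrophage markers, 155 to 468 against 93.53 to 353.3 TPM for 5 Leydig cell markers, and 125.8 to 465.3 against 59.5 to 307.6 TPM for 4 erythroid markers, mutants against non-mutants. By limma 0 of these markers were called. The part of these cell populations in the Smc1a difference was not tested.

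**Figure D5:**
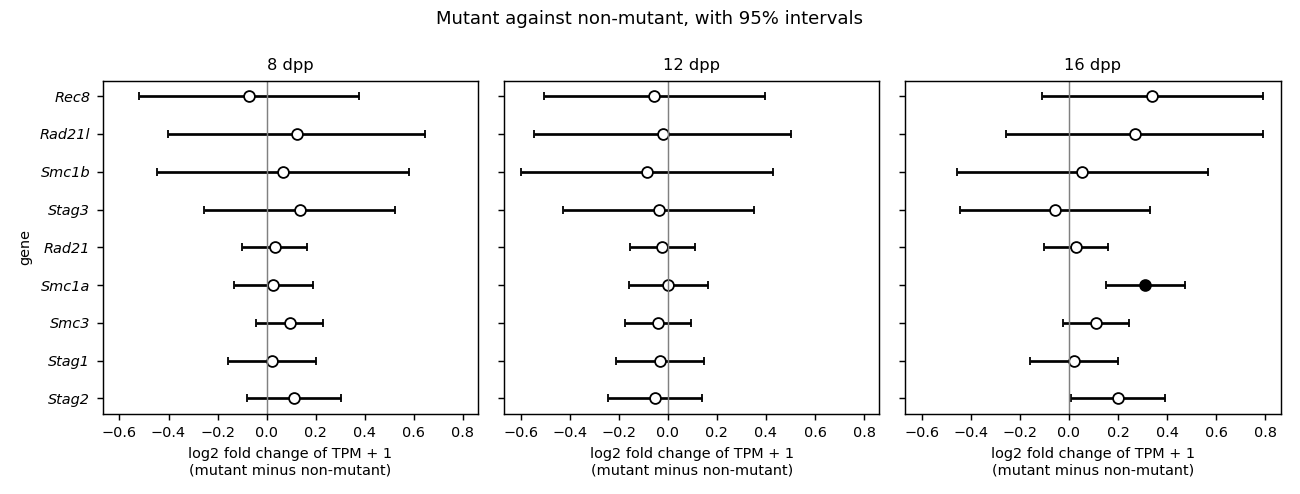
Log2 fold change of TPM + 1, mutant minus non-mutant (x axis), for each member (y axis) at 8, 12 and 16 dpp, with 95% intervals; the filled point was called by limma. Smc1a at 16 dpp, 0.31, is the only call, and the intervals of the 4 meiotic genes are the widest in each panel.

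The difference of the 12 to 16 dpp step between mutants and non-mutants was called for 1.35% of rows and for 0 of 9 members. Smc1a came nearest: it was 0.10 higher at 16 than at 12 dpp in mutants and 0.21 lower in non-mutants, a difference of 0.31 ± 0.111 (limma adjusted p = 0.308, unadjusted p = 0.00945). Without +/- replicate 1 of 16 dpp this difference was 0.38 and passed the threshold (limma adjusted p = 0.0475). Between heterozygotes and wild-type animals no row was called by limma (0% of 18668; 1972 at an unadjusted p under 0.05). The lack of calls does not show that these animals were alike. Members ran there from -0.03 to 0.49, with Smc1b the highest (limma adjusted p = 0.485, unadjusted p = 0.058). Stag3 was 0.28 higher in +/- than in +/+ libraries (limma adjusted p = 0.447, unadjusted p = 0.0309). The balance of +/- and +/+ libraries differed between ages, and its part in the non-mutant age steps was not tested.

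Genes that act on cohesin were read as a list of 20 (loaders, release factors, acetyltransferases, cleavage and its protectors, and CTCF genes), of which 19 passed the filter; Sgo2b was listed near 0. From 8 to 12 dpp 5 rose and 2 fell in mutants, with a median of 0.14 on the log2 scale, where 17.5% of all rows rose and 12.2% fell. In non-mutants 7 rose and 0 fell, with a median of 0.25, where 20.3% of all rows rose and 12.1% fell. Those that rose in both classes were Esco2 and Esco1, which acetylate SMC3, the loader subunit Mau2, the checkpoint kinase Bub1 and Ctcfl, the germ cell paralog of CTCF. Ctcfl rose by 1.10 in mutants and 1.47 in non-mutants, Bub1 by 0.77 in mutants and 0.92 in non-mutants, and Esco2 by 0.695 in mutants and 0.995 in non-mutants. The loader Nipbl (0.32) and the release factor Wapl (0.31) rose in non-mutants. The centromere protector Sgo1 (-0.35) and the SMC3 deacetylase Hdac8 (-0.58) fell in mutants, the Sgo1 call being lost on leaving out 1 of 5 mutant libraries (limma adjusted p up to 0.0977). In non-mutants Mau2 and Nipbl lost their calls under median-ratio scaling (0.14 and 0.22, limma adjusted p = 0.118 and 0.0727). Mau2 also lost it without +/+ replicate 1 (0.20, 0.115) or +/+ replicate 2 (0.22, 0.0736) of 8 dpp, or +/- replicate 2 of 12 dpp (0.18, 0.137).

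From 12 to 16 dpp 3 of the 19 rose in mutants (Meikin, Bub1 and Esco2) and 5 in non-mutants (Meikin, Haspin, Bub1, Sgo2a and Pttg1), with 0 lower in either. Of all rows, 12.1% were called in either direction at this step in mutants, 5.89% of rows being lower, and 21.8% in either direction in non-mutants. Meikin, which with its partners protects centromeric cohesin in the first meiotic division, rose by 1.08 in mutants and 2.27 in non-mutants. Bub1 rose by 0.53 in mutants and 0.50 in non-mutants. The Esco2 rise in mutants, 0.36, was at the threshold (limma adjusted p = 0.0498, and 0.0602 with litter as a random block). In non-mutants Pttg1, which encodes securin, lost its call without +/- replicate 3 of 16 dpp (0.24, limma adjusted p = 0.0536), and so did the centromere protector Sgo2a (0.32, 0.0579).

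At 16 dpp 2 of the 19 were lower in mutants than in non-mutants and 0 higher, where 2.75% of all rows were lower and 0.509% higher, with a median over the list of 0.03 and over all rows of 0.07. Meikin was at 1.02, 4.05, 1.29, 1.89 and 3.5 TPM in mutants and 3.39, 9.58, 10.65, 6.17 and 4.76 TPM in non-mutants. It was lower by 1.24 ± 0.269 on the log2 scale (SE, limma adjusted p = 0.00417). The classes overlapped, since the mutant values of 4.05 and 3.5 TPM lay above the lowest non-mutant value. Haspin, the histone kinase that marks centromeric chromatin, was at 5.2, 4.44, 5.34, 4.72 and 5.54 TPM in mutants and 6.66, 18.24, 29.46, 6.96 and 8.72 TPM in non-mutants. Its classes did not overlap, and the difference was -1.09 ± 0.248 (limma adjusted p = 0.00697). With litter as a random block Hdac8 was called as well, 0.55 higher in mutants (limma adjusted p = 0.0213). The Haspin call was lost with the litter as a fixed block (limma adjusted p = 0.0729) and without +/- replicate 2, at 18.24 TPM (-0.94, 0.05). Against +/+ libraries alone neither gene was called (Haspin -0.54, limma adjusted p = 0.312; Meikin -1.03, 0.232), nor in a fit of the 16 dpp libraries alone (Haspin -1.09, 0.125; Meikin -1.24, 0.0644). Meikin was also lost at a pseudocount of 0.1 (-1.58, 0.264).

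Other SMC complexes were read in the same way. Of 8 condensin genes, which compact chromosomes, 1 rose and 1 fell from 8 to 12 dpp in mutants, and 3 rose (Smc4, Ncapg and Ncapg2) and 1 fell (Ncaph) in non-mutants, where 29.7% of all rows were called in mutants and 32.5% in non-mutants. From 12 to 16 dpp 2 rose in mutants and 2 in non-mutants. Of all rows, 12.1% in mutants and 21.8% in non-mutants were called in either direction. Of 6 tested genes of the SMC5/6 repair complex, 1 rose (Smc6) and 1 fell (Nsmce3) from 8 to 12 dpp in mutants, and 2 rose (Smc5 and Smc6) and 1 fell (Nsmce2) in non-mutants. None of either list was called between genotypes at 16 dpp, where 3.26% of all rows were called.

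Across the 30 libraries the 4 meiotic genes moved alike. Pearson's r between pairs of them on log2(TPM + 1) was 0.919 to 0.965 over 6 pairs, a description of libraries that share age and cell makeup. Taken as deviations from the means of the 6 groups, r was 0.458 to 0.806, lowest for Rec8 with Smc1b and highest for Rad21l with Stag3. The subunits of mitotic cells were not alike as a set, with r from -0.410 (Smc1a with Smc3) to 0.788 (Rad21 with Stag2). Rad21 ran against all 4 meiotic genes (r from -0.698 to -0.675), as did Stag2 (-0.660 to -0.606) and Smc1a (-0.656 to -0.544). Smc3 (0.802 to 0.860) and Stag1 (0.483 to 0.609) ran with them. As deviations from group means, Rad21 gave r from -0.0787 to 0.291 with the 4 meiotic genes.

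Among tested Ensembl genes with a symbol, those most like each meiotic gene over the 30 libraries were named by Pearson's r. Names of the Gm, Rik and accession-like kinds were left out, as were NONCODE and piRNA rows. The closest were Esco2 for Rad21l (0.983), Zcwpw1 for Stag3 (0.982), Ugt8a for Smc1b (0.979) and Nrbp1 for Rec8 (0.963). Next in order came Cpeb1 and Ugt8a for Rad21l, and Meioc and Prss50 for Stag3. For Smc1b these were Dmc1 and Tex16, and for Rec8 Npnt and Ecsit. Dmc1 encodes the meiotic recombinase, Zcwpw1 a reader of histone marks set by PRDM9, and Meioc a factor for entry into meiotic prophase. How many of the genes named have a role in meiosis was not counted. For 4 of the 5 subunits of mitotic cells the closest of such genes were Sema3c for Rad21 (0.949), Smarca5 for Smc3 (0.939), Xiap for Stag2 (0.918) and Ptk2 for Stag1 (0.854).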

How the data were processed

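TPM per gene were deposited by the authors. Per the submitters' processing notes, which give no role or order, Bowtie 1.0.0, RSEM 1.2.8 and mm10 (GRCm38) were used. Use of strand is not given in the sources used here. The table holds 38906 Ensembl rows (37709 matched to GENCODE M21), 26523 NONCODE rows and 105 piRNA loci, and 3.23 to 3.95% of each library's TPM lies outside it. Read depth cannot be had from TPM, and precision rests on the number of libraries. Per the labels' protocols, tubules were digested with Liberase and washed to remove interstitial cells before RNA extraction.

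Rows above 1 TPM in 5 or more of the 30 libraries, 20021 in all, were fitted as log2(TPM + 1) with limma 3.58.1 (trend option, under R 4.3.3), in 1 fit of 6 groups (mutant or non-mutant at 8, 12 and 16 dpp). A separate fit with an age term compared heterozygotes with wild types over 18668 rows. Benjamini-Hochberg adjustment covered all rows of a fit, and calls are at an adjusted p under 0.05. The test was run on simulated data in which each library was drawn independently, so that check does not cover the likeness of litter mates. The members, gene lists and tests were chosen with earlier results of these data known. All members are named, and list genes where called. The 3 Ensembl genes most like each member by Pearson's r were computed, of which some are named. Genes without a symbol, or with Gm, Rik or accession-like names, were left out of that search.

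Litter mates pair the samples: the deviations of 15 pairs, read from the file header and library numbers, correlated at 0.0727 to 0.39, with 13 of 15 over 0.1, against a median of -0.0836 for 58 pairs of other litters. Promoters came from RefSeq (GRCm38.p6), which held 7 of 9 members.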

Additional observations from a re-analysis of the deposited data

Results flagged for a closer look

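Within groups of 5 libraries, 9 of 96 sets of values held a library that stood apart from the others by Dixon's test, which chance alone gives in about 1 set in 20. Mutant replicate 1 of 8 dpp held 3 of these: Rad21l at 8.58 TPM (next 3.58), Stag3 at 118.5 TPM (next 61.11) and a Rad21l to Rad21 ratio of 0.0356 (next 0.0154). The same library had the highest leptotene and zygotene marker sum of its age, 193.7 TPM. Mutant replicate 4 of 8 dpp was high for Stag2, at 79.19 TPM (next 57.8).

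Smc1a was low in +/- replicate 1 of 8 dpp, at 45.11 TPM (next 51.77), and high in mutant replicate 4 of 12 dpp, at 49.08 TPM (next 42.65). Stag1 was high in +/- replicate 4 of 12 dpp, at 102.4 TPM (next 83.85), 1 of the litter mates that went against their labels, and low in +/+ replicate 2 of 16 dpp, at 67.32 TPM (next 80.78). The share of Rec8 plus Rad21l among kleisins was low in mutant replicate 2 of 12 dpp, at 12.7% (next 19.4%), the library with the lowest leptotene and zygotene marker sum of its group, 279.1 TPM.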

How the results depend on the processing

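Of 494 alternative counts of called members, 466 stayed within 1.5 times the main count. These include comparisons with 0 of all rows called in the main fit and at most 4 in any alternative, whose counts could hardly move. From 12 to 16 dpp in mutants 10 alternatives moved and 30 stayed, and between genotypes at 16 dpp 9 moved and 34 stayed. No member value called in either fit changed sign, whereas 41 of 73 values not called changed sign under some alternative. Between genotypes at 16 dpp the count of 1 became 0 under median-ratio scaling, against +/+ or +/- libraries alone and with the 16 dpp libraries alone, and was 0 to 1 on leaving out a library. With litter as a fixed replicate block it was 1, and the pairing changed no other member's call in that comparison. From 8 to 12 dpp in non-mutants the count of 6 became 1 with +/+ libraries alone. From 12 to 16 dpp the mutant count of 1 became 3 (median-ratio scaling), 2 (quantile normalization), 5 (compared ages alone) or 4 (array weights), and was 1 to 3 on leaving out a library. The non-mutant count of 2 became 0 (+/+ alone), 1 (+/- alone) or 4 (compared ages alone), and was 1 to 3 on leaving out a library. For the difference of this step it was 0 to 1 on leaving out a library. With both classes averaged, the count of 5 became 3 with no filter and 3 with litter as a random replicate block. The cause of these changes was not tested. Over all rows, the calls between genotypes at 16 dpp ranged from 169 to 1181 (653 in the main fit), and those of the 12 to 16 dpp step from 366 to 5363 in non-mutants (4372) and from 1634 to 4188 in mutants (2423). The difference of that step ranged from 62 to 505 (270), and the 8 to 12 dpp step in non-mutants from 1300 to 6806 (6497). TPM without depth gives no counting error, and the groups hold 5 libraries each.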
